A study of Homo sapiens with 12 samples.

Results

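The genes described here encode enzymes of glycolysis and of the pentose phosphate pathway, with some related genes such as PGAM5. They were listed as 33 gene symbols by function, not by a measured value, although earlier results of these data were known when the list was drawn up, and they were matched by Ensembl identifier among the 60609 genes of the count files. Of the 33 genes, 31 had enough counts to be tested, out of 13895 tested genes in all. Expression was measured by RNA-seq in K562, a human leukemia line established from chronic myeloid leukemia. The cells were treated for 48 h with DMSO, the solvent (3 libraries), or with FT671 at 10 μM (3 libraries), a small molecule that blocks the ubiquitin-removing enzyme USP7. The comparison asks how steps of sugar breakdown were expressed when USP7 was inhibited. No genetic change separates the groups, and both are of the same cell line at the same time point, so that a single line stands for the leukemia.

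Glycolysis splits glucose into pyruvate in the cytosol, with a preparatory part that spends ATP (hexokinase to aldolase) and a later part that yields ATP and NADH (triose phosphate isomerase to pyruvate kinase). Lactate dehydrogenase then turns pyruvate into lactate and restores NAD+. The pentose phosphate pathway branches off after hexokinase and makes NADPH in its oxidative arm and ribose phosphate for nucleotides in its non-oxidative arm, whose transketolase and transaldolase return carbon to glycolysis. Red cells and their precursors rely on both pathways, and several steps are carried by paralogous genes that differ between tissues.

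FT671-treated cells had more RNA of most of these enzymes. Of the 31 tested genes, 21 were higher and 3 were lower after FT671 at an adjusted p of 0.05 in edgeR's quasi-likelihood test, and 7 did not pass. That is, 67.7% of them were higher, beside 23.6% of all tested genes, and 9.68% were lower, beside 26.5% of all tested genes. Their median log2 fold change was 0.38, against −0.01 over all tested genes, and 28 of the 31 fold changes were positive. The changes were moderate, with a log2 fold change from −0.38 for PFKP to 1.27 for ALDOC. Taken as a sum, the 33 genes held between 1.03% and 1.13% of the counts of a DMSO library and between 1.31% and 1.36% of an FT671 library, so that the groups did not overlap. At the stricter adjusted p of 1e-05, 3 genes were higher (ALDOC, LDHA and PGK1) and 0 were lower, beside 1.79% and 4.13% of all tested genes. The number past this stricter threshold rested on the libraries used, with 6 higher and 2 lower genes without DMSO replicate 3 and 1 higher and 0 lower genes without any one of the other 5 libraries.

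Counts totaled between 5320245 and 14250500 in the DMSO libraries and between 4555220 and 11437804 in the FT671 libraries. Expression is given as CPM, the count of a gene relative to the TMM-scaled library total, and 3 counts, taken as the smallest detectable amount, correspond to between 0.208 and 0.666 CPM, which covers counting error only. DMSO replicate 3 stood apart, at a chi-square of 7.55 and 8.73 per degree of freedom against the other DMSO libraries, which differed from each other by 2.94. Of the 31 tested genes, 22 had their lowest DMSO value in this library. The share among all tested genes was not counted, so the 22 cannot be read as particular to the listed genes. Without it 21 genes were still higher and 3 lower, and the median log2 fold change was 0.30. The erythroid markers of K562 were expressed, with a summed level of 1265 to 1302 CPM in DMSO and 1127 to 1164 CPM in FT671 over 10 genes. Of 10 markers of other blood and stromal cells, 1 (MS4A1) had 0 counts in all libraries and CD14 had at most 1 count in a library. The sum over those 10 genes was 137 to 143 CPM in DMSO and 180 to 187 CPM in FT671. Of the 5 that were tested, LYZ and EPCAM were higher after FT671, each with a log2 fold change of 0.49, and their part in the results below was not tested. In bulk RNA, a larger share of cells that express a gene and more RNA per cell cannot be told apart.

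For 4 genes the RefSeq promoter window, 250 bases before to 50 bases after the start of transcription in GRCh38.p14, is shown because they include the 3 rising genes with the lowest adjusted p and 1 of the genes that fell. Capitals mark the letters ACGTG and GCGTG on either strand, the core of the element bound by hypoxia-inducible factors, which includes the E-box CACGTG read by MYC and USF proteins. On the other strand they read CACGT and CACGC, and each CACGTG was counted as 1 match. The windows are chr17:28576846-28577145 (minus strand) for ALDOC, chr11:18394313-18394612 (plus strand) for LDHA, chrX:78103998-78104297 (plus strand) for PGK1 and chr19:17511399-17511698 (plus strand) for PGLS.
ALDOC: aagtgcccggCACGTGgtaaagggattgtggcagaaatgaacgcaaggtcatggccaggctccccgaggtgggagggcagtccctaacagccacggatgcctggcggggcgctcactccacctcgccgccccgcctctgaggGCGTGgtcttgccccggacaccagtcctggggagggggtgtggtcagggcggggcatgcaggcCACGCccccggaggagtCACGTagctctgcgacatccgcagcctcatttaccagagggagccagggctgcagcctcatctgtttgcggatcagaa
LDHA: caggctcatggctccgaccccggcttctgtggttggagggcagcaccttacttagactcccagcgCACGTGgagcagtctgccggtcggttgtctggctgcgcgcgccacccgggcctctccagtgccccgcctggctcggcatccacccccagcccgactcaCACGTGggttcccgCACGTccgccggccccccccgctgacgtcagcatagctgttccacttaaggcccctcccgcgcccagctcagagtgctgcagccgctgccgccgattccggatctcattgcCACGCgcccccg
PGK1: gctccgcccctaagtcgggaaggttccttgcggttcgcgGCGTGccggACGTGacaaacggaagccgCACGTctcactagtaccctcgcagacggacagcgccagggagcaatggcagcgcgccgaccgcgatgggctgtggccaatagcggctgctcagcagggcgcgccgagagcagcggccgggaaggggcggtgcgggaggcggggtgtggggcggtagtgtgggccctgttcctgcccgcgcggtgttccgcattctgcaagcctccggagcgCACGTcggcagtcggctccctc
PGLS: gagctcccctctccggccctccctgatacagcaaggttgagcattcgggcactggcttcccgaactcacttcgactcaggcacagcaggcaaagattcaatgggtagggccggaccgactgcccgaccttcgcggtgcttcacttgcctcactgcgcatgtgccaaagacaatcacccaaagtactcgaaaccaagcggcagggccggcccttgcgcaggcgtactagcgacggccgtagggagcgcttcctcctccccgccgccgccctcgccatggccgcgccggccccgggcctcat

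The ALDOC window held 4 such matches with 1 CACGTG, the LDHA window 4 with 2 CACGTG, and the PGK1 window 4 without a CACGTG. The window of PGLS held 0. PGLS was picked as an example without a match, and it does not stand for the genes that fell, since HK1 held matches in 2 of 7 windows and PFKP in 2 of 4. Of the 20 risen genes with a window, 17 held a match and 3 (TKT, TALDO1 and RPE) held none. A match was also held by 2 of the 3 genes that fell and by 6 of the 7 that did not pass. These counts are per gene over any of its windows, so the shares of windows given below are not a baseline for them. LDHA has a second window in the table with 1 match. Among all 58 windows of the 32 genes found in the table, 34 (58.6%) held ACGTG or GCGTG and 8 (13.8%) held CACGTG. These letters are common, and of all 35116 promoter windows 48.4% and 7.26% held them. A match describes the sequence and says nothing about binding in these cells.

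The values are described below in the order of the pathway, beginning with the entry of glucose. Hexokinases trap glucose in the cell by phosphorylation. HK1 (chr10:69269984-69401884), the form of most tissues and of red cells, was expressed at 1019, 1040 and 1039 CPM in DMSO and at 799.5, 808.1 and 810.3 CPM in FT671. The gap between the groups exceeded the range within either, and HK1 fell by 0.36 on the log2 scale (SE 0.0629, adjusted p = 0.000343). HK2, the inducible form of muscle and many tumors, was at 66.6, 70.7 and 63.6 CPM in DMSO and 81.3, 71.6 and 76.6 CPM in FT671. The HK2 groups did not overlap, but the log2 fold change of 0.19 (95% interval 0.0044 to 0.37) did not pass the test over all genes (adjusted p = 0.0819). It passed with a correction for exon length (0.27, adjusted p = 0.0133) or for GC content (0.24, adjusted p = 0.00761). As HK1 was lower and HK2 was not, HK2 held a larger share of the hexokinase RNA per kilobase of exon. This share was 7.01% ± 0.344 (SD, n = 3) in DMSO and 9.93% ± 0.615 in FT671 (two-sided exact permutation test, p = 0.1, the smallest that 3 libraries against 3 allow).

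GPI interconverts glucose phosphate and fructose phosphate at the branch point between both pathways. It rose from 556, 552 and 503.2 CPM in DMSO to 775.1, 749.3 and 717.2 CPM in FT671 (log2 fold change 0.47, SE 0.0695, adjusted p = 7.49e-05). Every FT671 library lay above every DMSO library by more than the range of either group.

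Phosphofructokinase commits sugar to glycolysis, and its subunits are encoded by PFKL (liver type), PFKM (muscle type) and PFKP (platelet type). These subunits differed in direction. PFKP (chr10:3066333-3137718) was at 164.1, 174.4 and 161.7 CPM in DMSO and at 127.3, 128.5 and 128.5 CPM in FT671. It fell by 0.38 on the log2 scale (SE 0.0702, adjusted p = 0.000487), and all FT671 values lay below all DMSO values. PFKL was at 205.7, 197.6 and 173.9 CPM in DMSO and at 239, 227.7 and 224.7 CPM in FT671, a rise of 0.25 (SE 0.077, adjusted p = 0.0132). The PFKL call was lost without FT671 replicate 1 (0.23, adjusted p = 0.0526). PFKM overlapped between the groups (log2 fold change 0.14, adjusted p = 0.266, and 0.09 to 0.25 when 1 library was left out), and it shares 516 exon bases with SENP1 on the opposite strand. Scaled by exon length, PFKL and PFKP held near equal shares of phosphofructokinase RNA in DMSO, at 42.7% ± 2.02 and 42.5% ± 1.41 (SD, n = 3). In FT671 the shares were 51.1% ± 0.782 for PFKL and 32.6% ± 1.18 for PFKP (two-sided exact permutation test, p = 0.1 for each). The PFKM share was 14.8% in DMSO and 16.4% in FT671, and the groups overlapped.

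The PFKFB enzymes make and break the sugar bisphosphate that activates phosphofructokinase. PFKFB2, the heart type, rose from 74.4, 69.9 and 75.2 CPM in DMSO to 100.4, 106.6 and 92.6 CPM in FT671 (log2 fold change 0.45, SE 0.0825, adjusted p = 0.000504). It shares 315 exon bases with YOD1 on the opposite strand, which held 7801 counts against 4324 and had a log2 fold change of −0.0093. PFKFB3 and PFKFB4, the forms best known from proliferating and hypoxic cells, overlapped between the groups at 21.8 to 25.5 CPM and 19.6 to 24.0 CPM. Their log2 fold changes were 0.052 (95% interval −0.19 to 0.29) and 0.011 (−0.24 to 0.26), and that of PFKFB4 was −0.049 without DMSO replicate 3 and −0.036 without FT671 replicate 1. PFKFB1 had at most 2 counts in a library and was not tested. Within the family, PFKFB2 held 49.8% ± 2.22 of the RNA per kilobase in DMSO and 56.4% ± 2.26 in FT671 (SD, n = 3, two-sided exact permutation test, p = 0.1).

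Aldolase cleaves the phosphorylated hexose into a pair of triose phosphates. ALDOC (chr17:28573115-28576948), the aldolase known from brain, showed the largest change among the 31 genes. It was at 42.2, 38.9 and 38.6 CPM in DMSO and at 101.5, 93.3 and 95.3 CPM in FT671, a rise of 141% (log2 fold change 1.27, SE 0.0854, adjusted p = 1.03e-07). The lowest FT671 library was above the highest DMSO library by more than the range within either group. An antisense lncRNA gene, ENSG00000265168 (chr17:28573117-28574243), shares 296 bases with the exons of ALDOC, held 805 counts against 3284 and also rose (1.32, adjusted p = 3.69e-06). Since the strand setting of the counting is not given in the sources used here, reads of ALDOC and of this gene cannot be told apart in the shared bases, and with both counts added the log2 fold change was 1.27. ALDOA, the ubiquitous aldolase, was at 501.1, 602.4 and 443.8 CPM in DMSO and at 634.1, 533.8 and 605.7 CPM in FT671. The ALDOA groups overlapped (log2 fold change 0.19, adjusted p = 0.124), while it was 0.093 without DMSO replicate 3 and passed the test without DMSO replicate 2 (0.33, adjusted p = 0.00935). The exons of ALDOA share 42.8% of their bases with ENSG00000285043 on the same strand, which held 118 counts against 28804. Reads in these bases may not have been assigned to either gene, so the level of ALDOA and the aldolase shares are uncertain. As counted, ALDOC made up 10.3% ± 1.45 of the aldolase RNA per kilobase in DMSO and 19.4% ± 0.887 in FT671 (SD, n = 3, two-sided exact permutation test, p = 0.1).

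**Figure D1:**
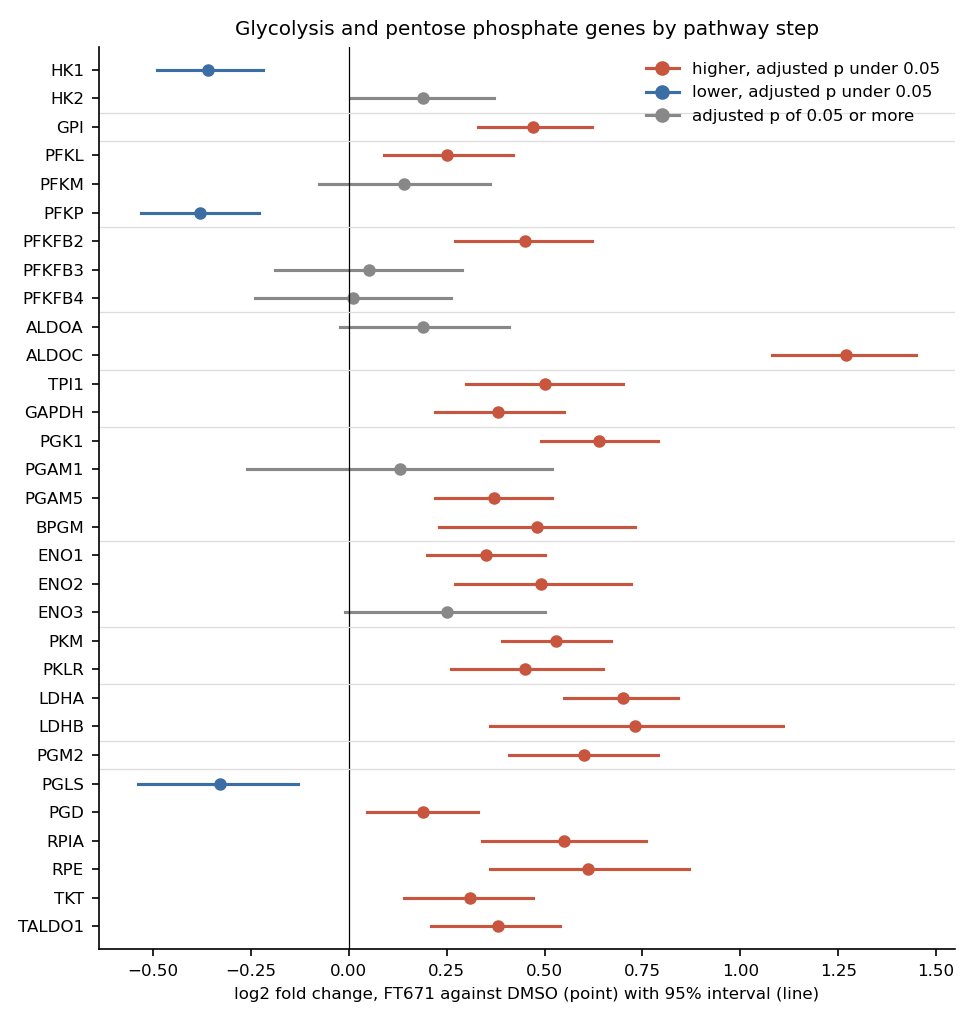
Log2 fold change of the 31 tested genes, FT671 against DMSO, with the 95% interval as a line, from hexokinase at the top to transaldolase at the bottom, and grey rules between enzyme steps. Red marks the 21 genes that were higher, blue the 3 that were lower (HK1, PFKP and PGLS) and grey the 7 that did not pass an adjusted p of 0.05.

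From the triose phosphates to lactate all 13 fold changes were positive. Of the 13 tested genes of this stretch, 11 rose (84.6%), 0 fell and 2 (PGAM1 and ENO3) did not pass, with a median log2 fold change of 0.48. The risen genes include BPGM, which makes bisphosphoglycerate, and PGAM5, a protein phosphatase. Of the 11 tested genes from hexokinase to aldolase, PFKFB genes included, 4 rose (36.4%) and 2 fell (18.2%), with a median of 0.19. Among all tested genes 23.6% were higher and 26.5% lower. Without DMSO replicate 3 the counts were the same and the medians were 0.41 and 0.14. The difference between these stretches was not tested.

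TPI1, which interconverts the triose phosphates, rose from 244.6, 218.2 and 184.3 CPM in DMSO to 326.2, 304.5 and 288 CPM in FT671 (log2 fold change 0.50, SE 0.094, adjusted p = 0.000588). GAPDH (chr12:6534512-6538374), which makes NADH at the next step and is widely used as a reference gene, was at 1593, 1644 and 1369 CPM in DMSO and at 2061, 1963 and 1981 CPM in FT671. It rose by 30.3% (log2 fold change 0.38, SE 0.0771, adjusted p = 0.000974) and was above its highest DMSO value in all 3 FT671 libraries. Within the exons of GAPDH lies an antisense lncRNA gene of 422 exon bases, ENSG00000269968 (chr12:6537794-6538370), with 69906 counts against 90682 of GAPDH. Its log2 fold change was also 0.38 (adjusted p = 0.00196), and the value with both counts added was the same. The level of GAPDH is therefore uncertain, because reads in these bases may stand under either gene. Pseudogenes named after GAPDH, 65 in number, held 0.634% as many counts as GAPDH itself.

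PGK1, which makes the first ATP of the later part of glycolysis, was at 180.7, 172.4 and 164.3 CPM in DMSO and at 256.3, 270.3 and 279.3 CPM in FT671. It rose by 55.7% (log2 fold change 0.64, SE 0.0711, adjusted p = 6.94e-06), with no overlap. PGAM1, the phosphoglycerate mutase of most tissues, had only 5.73 to 9.12 CPM and overlapping groups (log2 fold change 0.13, 95% interval −0.26 to 0.52, and 0.016 without DMSO replicate 3). Its count is uncertain, as 13 pseudogenes carry its name and reads that match several copies may not have been assigned. BPGM, which makes the bisphosphoglycerate that lowers the oxygen affinity of hemoglobin in red cells, rose from 14.8, 14.2 and 14.6 CPM to 20.9, 19.3 and 20.5 CPM (log2 fold change 0.48, SE 0.117, adjusted p = 0.00368). PGAM5, a member of the same family by sequence that acts as a protein phosphatase at mitochondria, rose from 109.2 to 111.5 CPM in DMSO to 139.6 to 147.2 CPM in FT671 (0.37, adjusted p = 0.000628).

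Enolase makes phosphoenolpyruvate. ENO1, the general enolase, had the most counts of all 33 genes, at 2521, 2547 and 2284 CPM in DMSO and 3187, 3137 and 3059 CPM in FT671. It rose by 27.6% (log2 fold change 0.35, SE 0.0692, adjusted p = 0.000802). ENO2, the neuronal form, rose from 30.0, 29.9 and 25.9 CPM to 43.8, 39.0 and 39.4 CPM (0.49, SE 0.104, adjusted p = 0.0014). ENO3, the muscle form, was lowest in DMSO replicate 3 at 83.9 CPM, and otherwise at 115.1 to 145.2 CPM. The ENO3 groups overlapped (0.25, adjusted p = 0.102), with a log2 fold change of 0.10 without DMSO replicate 3 and 0.16 without FT671 replicate 1, and its exons share 111 bases with PFN1 on the opposite strand, which held 31232 counts against 6084. The ENO1 share of enolase RNA per kilobase was 93.75% ± 0.642 in DMSO and 93.85% ± 0.5 in FT671 (SD, n = 3, two-sided exact permutation test, p = 0.9).

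Pyruvate kinase makes the last ATP. PKM rose from 584.4, 599.2 and 578.8 CPM in DMSO to 868.4, 811.5 and 867.8 CPM in FT671 (log2 fold change 0.53, SE 0.0655, adjusted p = 1.67e-05). PKLR, the gene of the liver and red cell enzyme, rose from 48.3, 47.3 and 43.8 CPM to 62.6, 67.8 and 61.6 CPM (0.45, SE 0.09, adjusted p = 0.000858). It shares 556 exon bases with HCN3 on the opposite strand (892 counts against 2798). As both genes were higher, their proportion differed by less than the spread, with PKLR at 17.6% ± 0.645 in DMSO and 17.0% ± 1.29 in FT671 per kilobase (SD, n = 3, two-sided exact permutation test, p = 0.5). Gene counts do not separate the M1 and M2 splice forms of PKM. Of the 4 splicing factors listed for PKM, SRSF3 (0.70), HNRNPA1 (0.69) and HNRNPA2B1 (0.22, not past the threshold without FT671 replicate 3, adjusted p = 0.0622) were higher and PTBP1 fell by 0.39 on the log2 scale. That is 75% higher and 25% lower, beside 23.6% and 26.5% of all tested genes. Among all tested genes with a mean of 100 CPM or more, 36.6% were higher and 27.1% lower. A list of 4 genes is too short to set apart from these shares.

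Lactate dehydrogenase closes the sequence. LDHA (chr11:18394560-18408425), the main form of glycolytic and tumor cells, was at 418.4, 409.3 and 429.8 CPM in DMSO and at 645.4, 692.6 and 698.7 CPM in FT671. It rose by 62.1% (log2 fold change 0.70, SE 0.0668, adjusted p = 1.87e-06), and the gap between the groups exceeded the range of either. LDHB, the heart form, had few counts, at 11.1, 7.24 and 8.32 CPM in DMSO and 17.3, 14.97 and 13.7 CPM in FT671 (0.73, SE 0.176, adjusted p = 0.00329). A gene on the same strand, ENSG00000285854, covers 33.4% of the LDHB exons and held 0 counts. Reads in the shared bases may not have been assigned to either gene, so the level and the share of LDHB are uncertain. LDHB held 4.10% ± 0.864 of the lactate dehydrogenase RNA per kilobase in DMSO and 4.38% ± 0.691 in FT671, a difference within the spread (SD, n = 3, two-sided exact permutation test, p = 0.5).

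**Figure D2:**
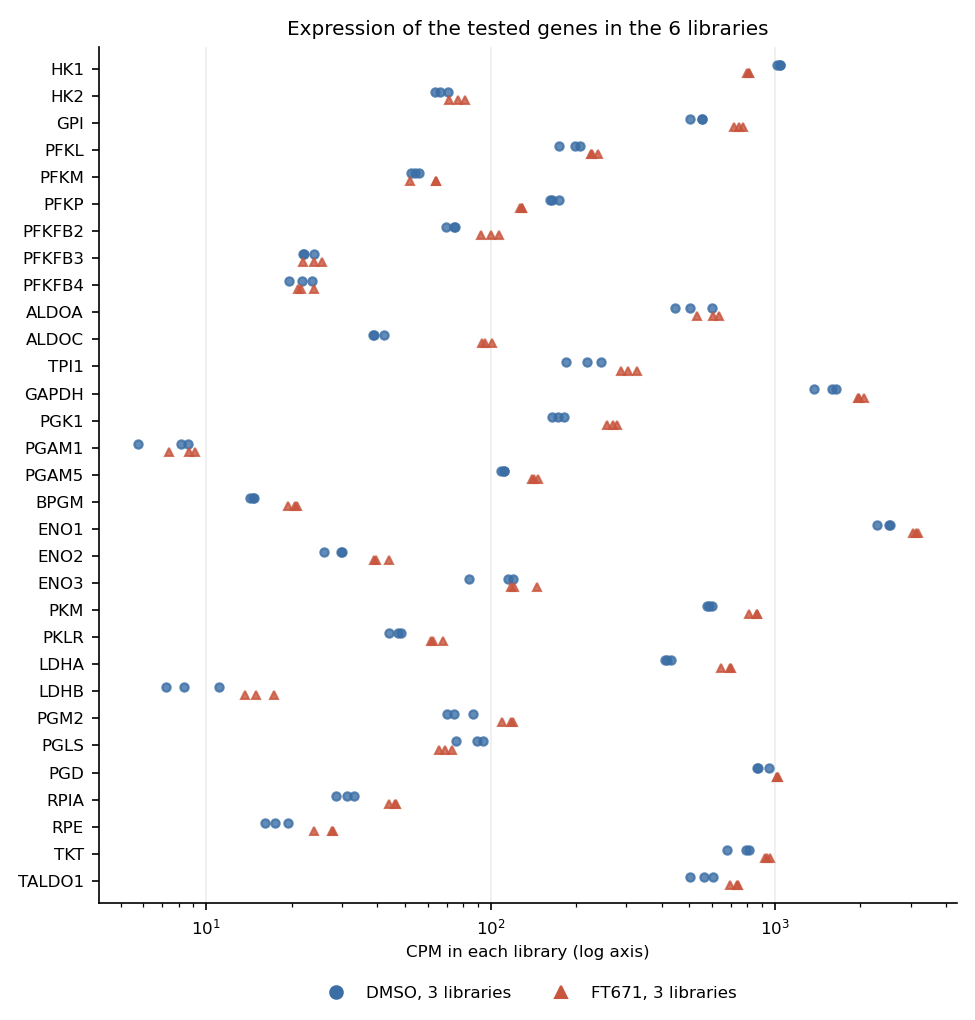
CPM of each tested gene in each of the 6 libraries on a log axis, with circles for DMSO and triangles for FT671. In 22 genes every triangle lies right of every circle and in 3 genes (HK1, PFKP and PGLS) left of every circle, while in the other 6 the groups overlap.

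Phosphoglucomutases connect glycolysis with glycogen and with ribose phosphate. PGM2, which acts mainly on pentose phosphates, rose from 70.2, 74.1 and 86.7 CPM in DMSO to 109.9, 118 and 119.5 CPM in FT671 (log2 fold change 0.60, SE 0.0891, adjusted p = 8.14e-05). PGM1, the main enzyme of glucose phosphate, is listed at 0 counts in all 6 libraries. The gene was not tested, and since it is not known whether this 0 comes from the cells or from the making of the counts, no limit on its expression is given. ITGB3BP on the opposite strand, which shares 197 of its exon bases, held 994 counts.

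In the pentose phosphate pathway 5 of 6 genes rose and 1 fell, with a median log2 fold change of 0.34. PGLS (chr19:17511636-17521288), the lactonase of the oxidative arm, was at 94.4, 89.6 and 75.4 CPM in DMSO and at 72.9, 69.3 and 65.9 CPM in FT671. It fell by 0.33 on the log2 scale (SE 0.0943, adjusted p = 0.0091), although DMSO replicate 3 lay close to the highest FT671 library. The PGLS call was lost without DMSO replicate 1 (adjusted p = 0.0626) or without FT671 replicate 3 (adjusted p = 0.0622). PGD, the dehydrogenase that yields NADPH after PGLS, was at 864.2, 950.9 and 871.2 CPM in DMSO and at 1015, 1021 and 1026 CPM in FT671. Its rise of 14% was the smallest that passed (log2 fold change 0.19, SE 0.0669, adjusted p = 0.0298), and it missed the threshold without DMSO replicate 1 (adjusted p = 0.124) and without FT671 replicate 1 (0.0636), 2 (0.0977) or 3 (0.0857).

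In the non-oxidative arm all 4 genes rose. RPIA, which forms ribose phosphate, rose from 31.3, 33.1 and 28.5 CPM to 43.8, 46.2 and 46.5 CPM (log2 fold change 0.55, SE 0.0987, adjusted p = 0.000405). RPE, the epimerase beside it, rose from 17.5, 16.0 and 19.4 CPM to 24.0, 28.0 and 27.6 CPM (0.61, SE 0.118, adjusted p = 0.000693), and it shares 840 exon bases with KANSL1L on the opposite strand. The transketolase TKT was at 791.4, 812.4 and 679 CPM in DMSO and at 964.8, 938 and 926 CPM in FT671 (0.31, SE 0.0763, adjusted p = 0.00406). The transaldolase TALDO1 was at 564.1, 605 and 503.7 CPM in DMSO and at 741.3, 695.5 and 736.1 CPM in FT671 (0.38, SE 0.0764, adjusted p = 0.00103). In both genes the lowest FT671 library was above the highest DMSO library. The 6 genes together held 0.221% to 0.249% of the counts in DMSO and 0.277% to 0.283% in FT671.

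Over all steps, every FT671 library was above every DMSO library in 22 genes, beside 26.8% of all tested genes, and below in 3 genes, beside 30.3%. The 22 genes comprised the 21 that passed the test and HK2. In level per kilobase of exon, the order of the genes in DMSO was led by GAPDH (640.8 CPM per kilobase), ENO1 (469.8), PGD (268.7), TALDO1 (191.8), HK1 (150.2) and ALDOA (134.7). In FT671 the first 4 kept their order at 835.3, 599.6, 306.3 and 249.2 CPM per kilobase, while ALDOA (154.4) stood above HK1 (117.2). ALDOC moved from 15.3 to 37.0 CPM per kilobase and from below PFKL, PFKP, PGM2 and RPIA to above them. The lowest tested levels were those of PGAM1 (2.95 in DMSO and 3.30 in FT671), LDHB (2.98 and 5.14), PFKFB4 (3.54 and 3.62) and PFKFB3 (3.69 and 3.89). The places of GAPDH, ALDOA, PGAM1 and LDHB in this order carry the limits given with these genes. The typical gene of the list was well expressed, with a median at the 86.1st percentile of mean CPM among tested genes.

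Fold changes of all genes depended on exon length, and the listed genes were compared with genes of like length and level. Among genes with exons under 3000 bases the median log2 fold change was 0.13 over all 4076 genes and 0.48 over the 9 listed genes. Between 3000 and 6000 bases it was −0.0091 over 4630 genes and 0.37 over 11 listed genes, and between 6000 and 12000 bases −0.091 over 3967 genes and 0.25 over 11. Among genes with a mean of 100 CPM or more, 36.6% of 2312 genes were higher and 27.1% lower, and of the 16 listed genes 12 were higher and 2 lower. With a correction for exon length 23 of the 31 genes were higher and 3 lower (median 0.41), and with a correction for GC content 24 and 3 (median 0.44).

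Genes that bring sugar into the cell or carry lactate out of it were listed beside the enzymes. Of 6 tested transporter genes and their partners, 1 rose (16.7%, beside 23.6% of all tested genes) and 4 fell (66.7%, beside 26.5%), with a median log2 fold change of −0.46. The difference between this short list and the enzymes was not tested. SLC2A1, the main glucose transporter of red cells and many tumors, was at 305.9, 306.1 and 251.4 CPM in DMSO and at 171, 179.7 and 173.8 CPM in FT671. It fell by 0.72 on the log2 scale (SE 0.0833, adjusted p = 9.32e-06), and no value of the groups overlapped. SLC2A3, a glucose transporter of high affinity, fell by 0.39 (SE 0.0777, adjusted p = 0.000943). SLC16A1, a lactate carrier, fell from 216.8, 214.5 and 272.5 CPM to 155.5, 168.5 and 158.7 CPM (0.54 on the log2 scale, SE 0.0922, adjusted p = 0.000276, and 0.43 without DMSO replicate 3). SLC16A3, the lactate exporter of glycolytic tissue, was low at 2.75 to 4.07 CPM in DMSO and 0.541 to 2.32 CPM in FT671 and fell by 0.92 (adjusted p = 0.0426). The SLC16A3 call was lost without DMSO replicate 1 (−0.86, adjusted p = 0.121), without FT671 replicate 1 (−1.02, adjusted p = 0.0594) or without FT671 replicate 2 (−0.58, adjusted p = 0.15), and the value was −1.38 without FT671 replicate 3. It was also lost with the corrections for exon length (adjusted p = 0.0597) and GC content (0.0678) and by DESeq2's Wald test (0.0992). BSG, the chaperone that brings both lactate carriers to the membrane, rose by 0.30 (SE 0.0719, adjusted p = 0.00328).

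Of the other enzymes of glycolysis, gluconeogenesis and the pentose phosphate pathway, 15 of 33 were tested, of which 5 rose and 5 fell (33.3% each, beside 23.6% and 26.5% of all tested genes). PGM2L1, which makes glucose bisphosphate, rose by 1.09 on the log2 scale from 3.35 ± 0.165 to 7.19 ± 0.455 CPM (SD, n = 3, adjusted p = 0.000342), G6PC3, a glucose phosphatase, by 0.58 and PRPS1, which makes the activated ribose for nucleotides, by 0.43. DERA, the deoxyribose phosphate aldolase, fell by 1.64 from 10.9 ± 1.49 to 3.52 ± 0.431 CPM (adjusted p = 1.01e-05). H6PD, the enzyme that makes NADPH in the endoplasmic reticulum, fell by 1.40 from 34.5 ± 1.16 to 13.5 ± 2.61 CPM (adjusted p = 1.52e-06), and PGM3, of the hexosamine pathway, by 0.66. Each of these 3 fell by more than PFKP, the lowest of the 31 genes.

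Of 19 tested glycogen genes 5 (26.3%) were higher, near the 23.6% of all tested genes, and 8 (42.1%) were lower, beside 26.5%, with a median of −0.035. PYGL, the liver glycogen phosphorylase that releases glucose phosphate, rose by 0.95 (adjusted p = 5.22e-07), with EPM2A (0.81) and GYG1 (0.54) after it. GYG2, a primer of glycogen synthesis, fell by 2.29 (adjusted p = 7.81e-08) from 21.2 ± 1.04 to 4.27 ± 0.242 CPM (SD, n = 3), followed by the phosphatase subunits PPP1R3B (0.79) and PPP1R3D (0.64). The call of PPP1R3D was lost without DMSO replicate 2 (adjusted p = 0.148) and without FT671 replicate 1 (0.0996) or 3 (0.139). Of 12 genes of galactose, fructose and mannose entry, 3 (25%) were higher and 4 (33.3%) lower, beside 23.6% and 26.5% of all tested genes, with SORD (0.54), GALT (0.50) and GALK1 (0.40) on one side and PMM1 (−0.65), GMPPA (−0.61) and GALM (−0.52) on the other. Without FT671 replicate 3 the call of GALT was lost (adjusted p = 0.104).

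Many glycolytic genes are known targets of hypoxia-inducible factors, so genes of that pathway and targets outside glycolysis were examined beside them. Of 21 tested genes, 7 were higher and 7 lower (33.3% each, beside 23.6% and 26.5% of all tested genes), with a median of −0.14. The list pools pathway members with targets, and its median does not describe the targets alone. Of the targets, NDRG1, MXI1, FAM162A, P4HA1, BNIP3 and PDK1 were higher and VEGFA, BNIP3L and DDIT4 lower. Of the pathway members, EGLN2 was higher and EPAS1, ARNT, EGLN1 and HIF1AN lower. With the correction for exon length 8 genes of the list were higher and 4 lower (median −0.0072). The largest rises were those of NDRG1 (0.93), MXI1 (0.92) and FAM162A (0.84). The call of NDRG1, at 2.09 ± 0.408 and 3.98 ± 0.645 CPM (SD, n = 3), was lost without DMSO replicate 1 (adjusted p = 0.0505) and without FT671 replicate 3 (0.0642). EPAS1, which encodes a hypoxia-inducible factor, fell by 1.55 (adjusted p = 1.96e-08) from 157.6 ± 5.26 to 53.8 ± 4.82 CPM, and the mitophagy receptor BNIP3L by 0.63 and the oxygen sensor EGLN1 by 0.58. The difference between this list and the glycolytic genes was not tested.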

How the data were processed

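Per the labels and the methods of the study, libraries were prepared from total RNA of K562 cells with the KAPA RNA HyperPrep kit after removal of ribosomal RNA, and paired-end reads were aligned to hg38 with STAR. The authors deposited 1 read count per gene and library, without normalization. The submitters' processing notes name STAR and DESeq2. Versions, the annotation release and the strand setting of the counting are not given in the sources used here. The 6 ChIP samples of the series were not used here.

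Of 60609 genes, 60295 were matched to GENCODE release 44, and the 314 others held 0.0609% of the counts. With R 4.3.3 and edgeR 4.0.16, genes were filtered by filterByExpr (13895 tested), scaled by TMM and compared by the quasi-likelihood test without covariates (common biological coefficient of variation 0.0832), with Benjamini-Hochberg adjustment over all tested genes. P-values measure the spread between the 3 libraries of a group, which the study describes as independent experiments. The SE is the size of the log2 fold change divided by the square root of F. Exon length is the union of the exons of a gene. Paralog shares were compared by a two-sided exact permutation test over libraries (scipy 1.17.1). Fits were also run on simulated data, and the outcome is not reported here. Alternatives were DESeq2's size factors, DESeq2's Wald test (DESeq2 1.42.0), library totals alone, no filter, a minimum of 10 counts in every library, loess corrections (span 0.3) for exon length and GC content, a replicate block, thinning to 4555220 counts, pseudogene counts added and each library left out. The addition of antisense genes lying at least 90% within the exons of a gene was chosen after seeing the data.

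The 33 genes and the other lists were chosen with earlier results of these data known. Named genes were all 33, up to 3 higher and 3 lower genes of each other list with the largest changes and no overlap of the groups, and the transporters SLC2A1, SLC2A3, SLC16A1 and SLC16A3. The other called genes of the hypoxia-inducible factor list are named outside this rule, without their single alternatives. Genes overlapping these on the genome are named for some of them, not for all. A gene of the galactose, fructose and mannose list is not reported here and was left out of its counts.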

Additional observations from a re-analysis of the deposited data

How the results depend on the processing

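Of 589 combinations of a tested gene and an alternative, 560 kept the direction and the side of the threshold, 11 lost the call, 13 gained one and 5 changed sign, and 22 of the 31 genes were the same under every alternative. The 5 changes of sign were all of PFKFB4, which passed no test, at −0.022 with library totals alone, −0.027 without a filter, −0.0077 after thinning, and between −0.049 and 0.081 when 1 library was left out. The number of higher genes lay between 19 and 24 and that of lower genes between 2 and 3 under the alternatives at an adjusted p of 0.05. At 1e-05 the numbers were 3 and 0 in the main fit and depended on the alternative. With all 6 libraries they ran from 2 and 0 (library totals alone, and after thinning) to 10 and 0 (GC correction). They were 7 and 1 by DESeq2's Wald test and without a filter, and 5 and 0 with the length correction. The median log2 fold change was 0.44 with the GC correction, with or without the replicate block, and between 0.30 and 0.42 when 1 library was left out, and the cause was not tested. Besides the calls named with the genes, that of LDHB was lost after thinning (adjusted p = 0.0512), those of PFKL (0.0586) and PGD (0.195) without a filter and that of PGD with library totals alone (0.0516), and PFKM passed with the length correction (0.24, adjusted p = 0.0471), ALDOA with the GC correction (0.27, adjusted p = 0.00449) and ENO3 with the GC correction (0.32, adjusted p = 0.00294). With the replicate block 22 genes were higher and 3 lower, ENO3 being the gene gained (0.27, adjusted p = 0.0118). The study speaks of independent experiments but does not tie the numbers to them, and the correlations of same-numbered deviations were 0.115, −0.0605 and 0.14, which do not settle whether the numbers pair the libraries. The difference in the ENO1 share ran from −0.15 to 0.461 percentage points and that of LDHB from −0.103 to 0.771 when 1 library was left out. The ALDOC share differed by 6.8 percentage points in CPM not divided by length. Of 33 genes of the other lists named by the rule above, 28 were the same under every alternative. PPP1R3D, GALT, SLC16A3, NDRG1 and HNRNPA2B1 lost their call under at least 1 without a change of sign. Depth limits the values of PGAM1, LDHB and SLC16A3, which had few counts in the shallow libraries.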
